A study of Mus musculus with 8 samples.

Results

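The proteasome genes were followed through bone metastasis and primary tumour of the 4T1.2 model. They were 38 listed genes for the subunits of the proteasome core, its cap and its activators, of which 37 had at least 1 probe set carrying their symbol alone, out of 18193 genes with such a probe set on the array. Psme2 was the exception: its 1 probe set also carried the symbol of Psme2b, so the signal of Psme2 was not analysed here. The 37 genes had 81 probe sets in all, 16 of them having 1 and the other 21 having several, and each gene was represented by the probe set with the highest mean log2 signal over the 8 arrays, called its brightest. Of the 37 genes, 4 belonged to the immunoproteasome (Psmb8, Psmb9, Psmb10 and Psme1) and 33 to the constitutive core, cap and other activators.

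The 8 arrays held 2 groups from 4 Balb/c mice, a bone metastasis and a mammary primary tumour from each mouse. The metastases were taken from the spine and the primary tumours from the mammary gland, and per the labels' protocols the epithelial tumour cells were isolated from both; how was not given. 4T1.2 is a mouse mammary carcinoma line that metastasises spontaneously to bone, so that both groups descend from 1 line. The labels gave no treatment, genotype or age. Signals were RMA values on the log2 scale, in which 1 unit is a doubling, and folds are metastasis minus primary.

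The proteasome breaks down proteins that carry ubiquitin chains. Its core is a barrel of stacked rings: outer alpha rings that gate the entry and inner beta rings that hold the catalytic subunits Psmb5, Psmb6 and Psmb7. A cap with ATPases of the Psmc family and further Psmd subunits recognises, unfolds and feeds the substrate. In cells exposed to interferon, and constantly in many haematopoietic cells, Psmb8 takes the place of Psmb5, Psmb9 that of Psmb6 and Psmb10 that of Psmb7 in newly assembled cores, and Psme1 and Psme2 form an activator ring. This immunoproteasome yields peptides suited to MHC class I molecules.

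Although isolated tumour cells are labelled in both groups, markers of other cell types were measured and differed between them. Of 14 macrophage and monocyte markers 12 fell and 0 rose (mean log2 level 8.59 to 10.33 on metastasis arrays and 11.35 to 12.27 on primary arrays), whereas 6 of 8 granulocyte markers (10.09 to 10.71 and 6.42 to 7.01) and 6 of 7 B lineage markers (7.77 to 10.76 and 4.90 to 5.33) rose. All 6 nerve markers rose (7.55 to 9.70 and 4.37 to 4.49). Of 9 tumour epithelium markers 2 fell and 0 rose (6.33 to 7.99 and 7.96 to 8.92). None of 8 T and NK cell markers and none of 3 erythroid markers passed the test, and of 5 dendritic cell markers 1 fell and 1 rose. In bulk RNA fewer cells of a type and less RNA per cell cannot be told apart. The 3' probe set of the actin control exceeded the 5' one, a gap that grows as labelled RNA reaches less far from the 3' end. This gap was 4.85, 4.55, 5.72 and 6.18 on metastasis arrays 1 to 4, against 1.90, 1.85, 1.14 and 1.08 on primary arrays 1 to 4. The same gap of the Gapdh control was 4.66, 4.62, 6.08 and 5.51 on the metastasis arrays, against 2.59, 2.49, 1.55 and 1.97 on the primary arrays. The part of the cell mixture and of this gap in the results below was not tested.

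The promoters of the 4 measured immunoproteasome genes, and of Psmb5 and Psmb6 as counterparts, are shown because members of these groups moved together or apart. That of Psmb7, the counterpart of Psmb10, is not shown. Each run is the RefSeq window of assembly GRCm38.p6 from 250 bases before to 50 bases from the transcript start, 5' to 3' on the gene's strand. Capitals mark matches, on either strand, to the letters GAAA, any 2 bases, GAAA (the core of the interferon-stimulated response element), to TTCNNNGAA (the gamma-activated site bound by Stat factors) or to TGACNNNGC (the antioxidant response element bound by Nfe2l1 and Nfe2l2).
Psmb8, chr17:34197945-34198244, plus strand: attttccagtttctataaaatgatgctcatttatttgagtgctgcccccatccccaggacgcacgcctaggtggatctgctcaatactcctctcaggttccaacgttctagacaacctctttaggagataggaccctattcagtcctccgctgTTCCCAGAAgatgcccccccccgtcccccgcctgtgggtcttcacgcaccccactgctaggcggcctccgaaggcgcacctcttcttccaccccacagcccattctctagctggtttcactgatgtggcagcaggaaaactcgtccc
Psmb9, chr17:34187281-34187580, minus strand: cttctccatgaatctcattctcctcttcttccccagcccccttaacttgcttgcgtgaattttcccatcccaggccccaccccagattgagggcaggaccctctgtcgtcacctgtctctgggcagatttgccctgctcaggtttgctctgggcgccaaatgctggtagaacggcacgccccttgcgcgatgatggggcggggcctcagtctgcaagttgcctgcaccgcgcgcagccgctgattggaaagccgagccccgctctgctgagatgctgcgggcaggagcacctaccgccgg
Psmb10, chr8:105938343-105938642, minus strand: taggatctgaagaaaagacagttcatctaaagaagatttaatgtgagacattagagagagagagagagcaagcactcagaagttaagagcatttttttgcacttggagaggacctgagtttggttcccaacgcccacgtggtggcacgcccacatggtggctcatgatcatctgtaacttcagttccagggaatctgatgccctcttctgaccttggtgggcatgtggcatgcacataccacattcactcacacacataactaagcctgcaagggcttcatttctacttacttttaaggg
Psme1, chr14:55578244-55578543, plus strand: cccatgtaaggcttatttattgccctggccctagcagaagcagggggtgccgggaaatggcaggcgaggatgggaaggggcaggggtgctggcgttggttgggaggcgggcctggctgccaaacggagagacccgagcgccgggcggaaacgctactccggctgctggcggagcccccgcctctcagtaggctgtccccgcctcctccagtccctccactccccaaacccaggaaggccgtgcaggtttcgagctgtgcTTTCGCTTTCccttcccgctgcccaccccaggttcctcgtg
Psmb5, chr14:54617946-54618245, minus strand: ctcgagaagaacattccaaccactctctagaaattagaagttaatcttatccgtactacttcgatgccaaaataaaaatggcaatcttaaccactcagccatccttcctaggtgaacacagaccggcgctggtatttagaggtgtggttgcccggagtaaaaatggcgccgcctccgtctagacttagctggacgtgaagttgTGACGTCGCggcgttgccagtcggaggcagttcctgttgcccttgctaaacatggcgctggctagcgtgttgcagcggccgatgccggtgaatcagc
Psmb6, chr11:70525107-70525406, plus strand: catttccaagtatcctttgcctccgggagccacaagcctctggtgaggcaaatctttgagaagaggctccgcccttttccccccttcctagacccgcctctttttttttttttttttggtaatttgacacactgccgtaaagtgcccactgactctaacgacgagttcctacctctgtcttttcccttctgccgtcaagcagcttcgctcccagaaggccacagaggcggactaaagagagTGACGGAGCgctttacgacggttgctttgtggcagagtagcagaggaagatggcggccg

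Among these windows Psmb8 held a match to the gamma-activated site at position -97 from the start, Psme1 a match to the interferon-stimulated core at position 9, and Psmb5 and Psmb6 matches to the antioxidant element at positions -47 and -9. In the windows of Psmb9 and Psmb10 these 3 motifs had no match. The antioxidant element matched in 5 of the 27 constitutive genes with a RefSeq window and in 0 of the 5 immunoproteasome genes. Psmb7 was not among the genes with a match to it. Over the 32 listed proteasome genes with a RefSeq window, 3 (9.38%) held the interferon-stimulated core, 2 (6.25%) the gamma-activated site and 5 (15.6%) the antioxidant element, against 3.44%, 8.3% and 12.4% of all 32851 windows. Psme2 is among the 32. The letters CCAAT, bound by NF-Y, were in 12 of the 32 (37.5%), against 37.4% of all windows. In these shares a proteasome gene counted if any of its windows matched, whereas the background counts single windows, so the measures are not alike. In the 6 windows shown no match overlapped that of another motif, and a match in letters is no measured binding.

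Immunoproteasome genes fell in bone metastasis. All 4 measured genes were past the threshold (limma, Benjamini-Hochberg adjusted p under 0.05 over 18193 genes), with folds from -2.17 to -1.79 and a median of -1.89. Over all genes the median fold was 0.09, 12.1% were called lower and 9.72% higher, 21.8% in either direction. The macrophage and monocyte markers, also lower, had a median fold of -2.86. The other blood cell lists had medians above 0: B lineage 4.03, granulocyte 3.84, dendritic cell 0.40, T and NK cell 0.23 and erythroid 0.23. The part of any of these cells in the immunoproteasome folds was not tested. In 14.2% of all genes all 4 metastasis arrays lay below all 4 primary arrays, and this held for all 4 immunoproteasome genes.

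Psmb8, the inducible chymotrypsin-like subunit, had log2 signals of 9.74, 9.02, 7.53 and 7.48 on metastasis arrays 1 to 4, against 10.73, 10.28, 10.71 and 10.73 on primary arrays 1 to 4. The groups did not overlap, and metastasis arrays 3 and 4 lay far below arrays 1 and 2. Its fold was -2.17 with a standard error (SE) of 0.49 (limma adjusted p = 0.0156), or 4.49-fold lower. A second, dim Psmb8 probe set averaged 6.20 on metastasis arrays and 6.02 on primary arrays, with a fold of 0.18 (SE 0.26, limma adjusted p = 0.648 over all probe sets). Without mouse 3 or without mouse 4 the Psmb8 fold was -1.83 and -1.81 and did not pass (limma adjusted p = 0.105 and 0.0894), and with the mean of both probe sets it was -0.99 (limma adjusted p = 0.0527).

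Psmb9, the inducible counterpart of Psmb6, had log2 signals of 8.72, 7.77, 7.41 and 7.87 on metastasis arrays, against 10.19, 9.24, 9.68 and 9.88 on primary arrays. Every metastasis array lay below every primary array, and within mice 1 to 4 the difference was -1.48, -1.47, -2.27 and -2.01. The fold was -1.81 (SE 0.31, limma adjusted p = 0.00504). The call was kept without any 1 array or any 1 mouse. Tap1, the peptide transporter subunit whose gene lies next to Psmb9 and shares its promoter region, had a fold of -0.53 (SE 0.22, limma adjusted p = 0.129), with 9.15, 9.18, 8.65 and 8.62 on metastasis arrays, against 9.62, 9.05, 9.79 and 9.24 on primary arrays.

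Psmb10, the inducible trypsin-like subunit, had log2 signals of 8.96, 8.0, 6.49 and 8.53 on metastasis arrays, against 9.89, 9.28, 9.90 and 10.07 on primary arrays. Metastasis array 3 was the lowest, array 1 lay nearest the primary arrays, and the groups did not overlap. The fold was -1.79 (SE 0.49, 3.46-fold, limma adjusted p = 0.0313). The call did not hold without primary array 1, 3 or 4 (limma adjusted p = 0.0730, 0.0815 and 0.0886), without mouse 2, 3 or 4 (0.0716, 0.0731 and 0.107) or after quantile normalization (0.0704).

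Psme1, the alpha subunit of the interferon-inducible activator ring, had log2 signals of 9.64, 9.91, 8.25 and 9.16 on metastasis arrays, against 11.77, 10.85, 11.06 and 11.21 on primary arrays. The groups did not overlap. The fold was -1.98 (SE 0.36, 3.95-fold, limma adjusted p = 0.00693), and without mouse 4 it was -1.96 (limma adjusted p = 0.0534).

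**Figure D1:**
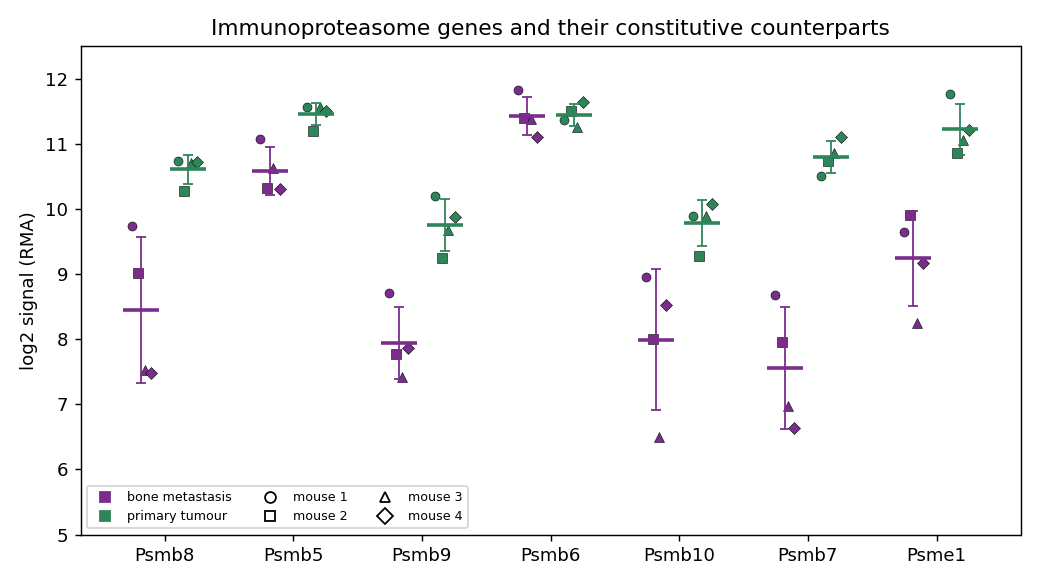
Log2 signal (RMA) of the 4 immunoproteasome genes and of Psmb5, Psmb6 and Psmb7, one point per array with the mouse shown by the symbol, metastasis left of primary, with the group mean and SD (n = 4 each). The 4 immunoproteasome genes, Psmb5 and Psmb7 show no overlap between groups, while Psmb6 averages 11.43 on metastasis arrays and 11.44 on primary arrays.

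The catalytic subunits that the inducible ones replace did not move as 1 group. Psmb7, the constitutive trypsin-like subunit, fell most, with log2 signals of 8.68, 7.96, 6.98 and 6.63 on metastasis arrays, against 10.50, 10.73, 10.85 and 11.10 on primary arrays. Its fold was -3.24 (SE 0.42, 9.42-fold, limma adjusted p = 0.00178), larger in size than that of any immunoproteasome gene. Psmb5, the constitutive chymotrypsin-like subunit, had 11.08, 10.32, 10.62 and 10.30 on metastasis arrays, against 11.57, 11.20, 11.56 and 11.50 on primary arrays.

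The groups of Psmb5 did not overlap either, and its fold was -0.87 (SE 0.20, 1.83-fold, limma adjusted p = 0.0177). Its call was lost without primary array 1, 3 or 4 (limma adjusted p = 0.0505, 0.0585 and 0.0577), without mouse 3 or 4 (0.112 and 0.0977) and after quantile normalization (0.0508). Psmb6, the constitutive caspase-like subunit, had 11.82, 11.39, 11.38 and 11.11 on metastasis arrays, against 11.36, 11.50, 11.25 and 11.64 on primary arrays. The groups of Psmb6 overlapped and its fold was -0.01 (SE 0.18, limma adjusted p = 0.972).

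Within each array, the inducible subunit was set against the one it replaces, which shows unequal change between them and no relative level. Psmb8 minus Psmb5 was -1.34, -1.30, -3.09 and -2.82 on metastasis arrays, against -0.84, -0.92, -0.85 and -0.78 on primary arrays, so that Psmb8 was lower relative to Psmb5 by a difference of -1.29 in metastasis. Psmb9 minus Psmb6 was -3.11, -3.62, -3.97 and -3.24 on metastasis arrays, against -1.16, -2.25, -1.57 and -1.76 on primary arrays, a difference of -1.80. Psmb10 minus Psmb7 went the other way, with 0.28, 0.03, -0.48 and 1.90 on metastasis arrays, against -0.61, -1.46, -0.96 and -1.03 on primary arrays, a difference of 1.44. The groups did not overlap in any of the 3 pairs. Each had a two-sided exact permutation p of 0.0286, the smallest that 4 arrays against 4 allow (adjusted p = 0.0286 over the 3 pairs). Permuted within mice, as pairs, the exact p was 0.125 in all 3, the smallest that 4 mice allow, so that no pair can pass in that test. Leaving out any 1 array cannot bring into overlap groups that do not overlap with all arrays, so these leave-outs do not test the separation. The exact permutation p was then 0.0286 without a metastasis array, and 0.0857, 0.0286 and 0.0571 for the 3 pairs without a primary array (each 0.0857 when adjusted). This inequality comes from counting splits by absolute difference: with the smaller tail doubled, a definition added after seeing the data, the exact p was 0.0571 whichever array was left out, the smallest that 4 against 3 allows. For Psmb8 minus Psmb5 the difference was -0.44 in mice 1 and 2, -2.14 in mice 3 and 4, and -0.12 with the mean of a gene's probe sets (exact permutation, adjusted p = 0.771).

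**Figure D2:**
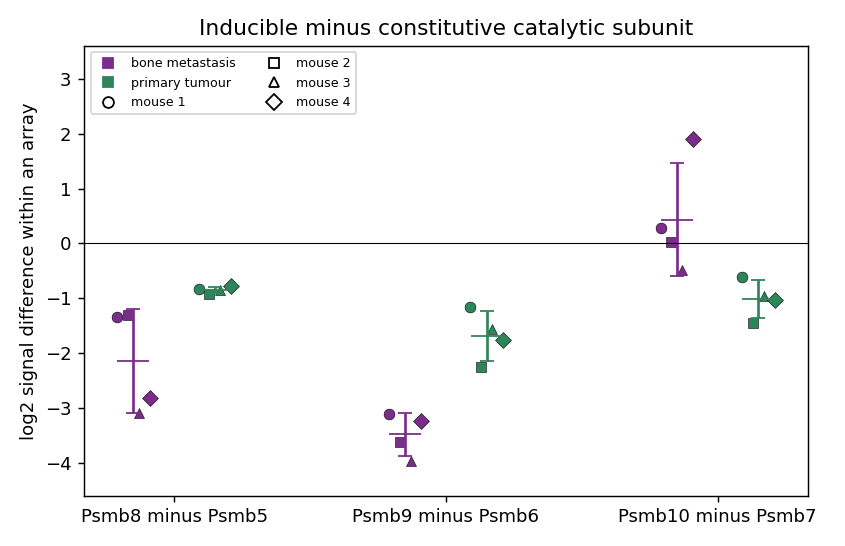
Difference of log2 signal within an array, inducible minus constitutive catalytic subunit, one point per array, metastasis left of primary, with mean and SD (n = 4 each). Psmb8 and Psmb9 lie lower relative to their counterparts on the metastasis arrays and Psmb10 lies higher relative to Psmb7.

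Constitutive genes, of the core, the cap and the other activators, fell more often than they rose. Of 33 genes, 13 were called lower (39.4%, against 12.1% of all genes) and 5 higher, and 15 did not pass the test, with a median fold of -0.83. In 14 of the 33 all 4 metastasis arrays lay below all 4 primary arrays, against 14.2% of all genes. Part of this background depends on brightness: among the 9097 brighter genes, which hold all 37 proteasome genes, 23.5% were called lower. The constitutive folds ran from -3.36 to 1.18 and enclosed those of the immunoproteasome: 7 of the 33 were as low as Psmb10 or lower, and 4 lay below Psmb8, the lowest of the immunoproteasome genes.

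In the alpha ring 3 of 7 genes fell and 0 rose, with a median of -0.83. Psma1 had log2 signals of 9.21, 8.87, 6.20 and 5.19 on metastasis arrays, against 10.61, 10.66, 10.55 and 11.07 on primary arrays. The 4 primary arrays lay close together and the metastasis arrays spread over 4 log2 units, with arrays 3 and 4 lowest. A second, dim Psma1 probe set had a fold of 0.02 (SE 0.29, limma adjusted p = 0.970 over all probe sets). On the brightest probe set the Psma1 fold of -3.36 (SE 0.84, limma adjusted p = 0.0232) was the largest fall of the 37 genes. It was -0.77 with the mean of its probe sets (limma adjusted p = 0.0732), and it was not past the threshold without metastasis array 3 (-2.97, limma adjusted p = 0.0633), without any 1 primary array (0.0515 to 0.0681) or without mouse 3 or 4 (0.134 and 0.0921). Psma3 and Psma4 changed by -0.83 (SE 0.21) and -1.11 (SE 0.27). Psma3 lost its call with the mouse as a block (limma adjusted p = 0.0584), with the mean of its probe sets (-0.12, 0.512), without metastasis array 3 (0.0637), without primary array 1, 3 or 4 (0.0664 to 0.0775) and without mouse 1, 3 or 4 (0.0511, 0.157 and 0.0886). Psma4 lost it after quantile normalization (limma adjusted p = 0.0592), without primary array 2, 3 or 4 (0.0512 to 0.0667) and without mouse 2, 3 or 4 (0.0973, 0.108 and 0.109). Psma2, Psma5, Psma6 and Psma7 had folds of -1.22, 0.26, 0.03 and -0.69 on their brightest probe sets, none past the threshold; the second probe sets of Psma6 and Psma7 were called lower, at -1.74 and -1.60 (limma adjusted p = 0.0170 and 0.0361 over all probe sets).

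In the constitutive beta ring 3 of 7 genes fell and 2 rose, with a median of -0.65. Besides Psmb5 and Psmb7, Psmb2, a structural beta subunit, fell: its log2 signals were 8.48, 8.68, 7.66 and 6.56 on metastasis arrays, against 10.14, 10.06, 10.11 and 10.19 on primary arrays. The groups were far apart, and the fold was -2.28 (SE 0.42, limma adjusted p = 0.00688, or 0.0642 without mouse 3). Psmb3 and Psmb4, further structural subunits, were called higher on their brightest probe sets. Psmb3 had 12.87, 12.504, 12.93 and 13.01 on metastasis arrays, against 12.15, 11.82, 11.90 and 11.75 on primary arrays, with a fold of 0.92 (SE 0.17, limma adjusted p = 0.00623, or 0.0602 without mouse 3). Psmb4 had 11.53, 11.54, 11.81 and 11.88 on metastasis arrays, against 11.13, 11.01, 10.80 and 11.02 on primary arrays, with a fold of 0.70 (SE 0.15, limma adjusted p = 0.0132, or 0.0534 with the mouse as a block and 0.104 without mouse 3). Without metastasis array 2, 3 or 4 the other Psmb4 probe set became the brightest and the fold was -1.42, -1.22 and -1.12. Psmb1 had a fold of -0.65 (SE 0.36), not past the threshold.

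Among the 6 base ATPases, which unfold the substrate, 3 fell and 2 rose, with a median of -0.82. Psmc1 had log2 signals of 8.50, 8.36, 6.78 and 6.95 on metastasis arrays, against 9.48, 9.42, 10.15 and 10.11 on primary arrays. All metastasis arrays lay lower, arrays 3 and 4 by most, and the fold was -2.14 (SE 0.43, limma adjusted p = 0.00969, or 0.0731 without mouse 3 and 0.0702 without mouse 4), and -1.07 with the mean of its probe sets (0.0138). Psmc5 and Psmc6 changed by -1.80 (SE 0.38) and -0.94 (SE 0.20). Without mouse 3 neither passed (limma adjusted p = 0.0890 and 0.0870), nor did Psmc6 without mouse 4 (0.0717) or with its most variable probe set (-1.59, 0.154). Psmc4 was higher, with 11.11, 10.70, 11.08 and 11.25 on metastasis arrays, against 9.97, 10.06, 9.40 and 9.98 on primary arrays, a fold of 1.18 (SE 0.20, limma adjusted p = 0.00477). With the mean of its probe sets Psmc4 stood at 0.20 (limma adjusted p = 0.438).

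Psmc2 was also called higher, with 12.27, 12.12, 12.64 and 12.51 on metastasis arrays, against 11.98, 11.78, 11.77 and 11.92 on primary arrays. Its groups did not overlap but lay close, and the fold was 0.52 (SE 0.16, limma adjusted p = 0.0451). The Psmc2 call was lost with the mouse as a block (limma adjusted p = 0.104), with the filter on dim genes (0.0736), without metastasis array 3 or 4 (0.0958 and 0.0722), without any 1 primary array (0.0774 to 0.126) and without any 1 mouse (0.0744 to 0.229). Psmc3 had a fold of -0.70 (SE 0.30), not past the threshold.

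Among the 11 other cap subunits 4 fell and 1 rose, with a median of -0.84. Psmd7, the partner of the deubiquitinase Psmd14 in the lid of the cap, had log2 signals of 7.32, 6.48, 6.15 and 6.19 on metastasis arrays, against 8.41, 8.67, 9.12 and 9.31 on primary arrays. The groups lay over 1 log2 unit apart and the fold was -2.34 (SE 0.31, limma adjusted p = 0.00185), a call kept without any 1 array or mouse. With the mean of its probe sets it was -0.56 (limma adjusted p = 0.0267). A second Psmd7 probe set averaged 6.63 on metastasis arrays and 5.99 on primary arrays. Its fold was 0.64 (SE 0.22, limma adjusted p = 0.0690 over all probe sets). Psmd8, another lid subunit, had 9.06, 9.33, 6.73 and 6.87 on metastasis arrays, against 9.65, 9.90, 10.10 and 10.18 on primary arrays. Metastasis arrays 1 and 2 of Psmd8 lay just below the primary arrays, and arrays 3 and 4 over 2 log2 units lower. Its fold of -1.96 (SE 0.60, limma adjusted p = 0.0478) was just past the threshold and lost it with the mouse as a block (0.0691), after quantile normalization (0.0502), without metastasis array 3 or 4 (0.106 and 0.104), without any 1 primary array (0.0818 to 0.118) and without mouse 1, 3 or 4 (0.0523, 0.217 and 0.216).

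Psmd2, a scaffold of the cap base, and Psmd12, of the lid, changed by -1.74 (SE 0.36) and -1.65 (SE 0.45). Psmd2 lost its call without mouse 2 or 3 (limma adjusted p = 0.0501 and 0.0772). Psmd12 lost it with the mouse as a block (limma adjusted p = 0.0510), without metastasis array 3 or 4 (0.0780 and 0.0544), without any 1 primary array (0.0585 to 0.0824) and without mouse 3 or 4 (0.175 and 0.131). Psmd6, of the lid, had 10.63, 10.48, 10.14 and 10.13 on metastasis arrays, against 9.96, 9.80, 9.75 and 9.75 on primary arrays. Its groups did not overlap, and the fold of 0.53 (SE 0.16, limma adjusted p = 0.0466) lost its call with the mouse as a block (0.0821), with the filter on dim genes (0.0735), without metastasis array 1 or 2 (0.0683 and 0.0810), without any 1 primary array (0.0740 to 0.129) and without any 1 mouse (0.0963 to 0.166). The 6 cap genes not past the threshold on their brightest probe sets were Psmd1 (-0.83), Psmd3 (-0.01), the ubiquitin receptor gene Psmd4 (-0.60), Psmd11 (0.13), Psmd13 (-1.37) and the deubiquitinase gene Psmd14 (-0.84).

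Neither of the other activators passed the test on its brightest probe set. Psme3, which forms a nuclear activator ring, had 8.38, 7.31, 8.04 and 6.91 on metastasis arrays, against 8.70, 8.44, 8.19 and 8.29 on primary arrays, with overlap and a fold of -0.75 (SE 0.32, limma adjusted p = 0.127, or 0.0361 without metastasis array 1). Psme4, a single-chain activator, had 10.37, 10.32, 8.79 and 7.93 on metastasis arrays, against 9.85, 9.86, 9.72 and 9.58 on primary arrays. Metastasis arrays 1 and 2 of Psme4 lay above every primary array and arrays 3 and 4 below, and the fold was -0.40 (SE 0.52, limma adjusted p = 0.594). With its most variable probe set Psme4 stood at -2.21 (limma adjusted p = 0.0470), and in mice 3 and 4 alone at -1.29 (0.0499).

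**Figure D3:**
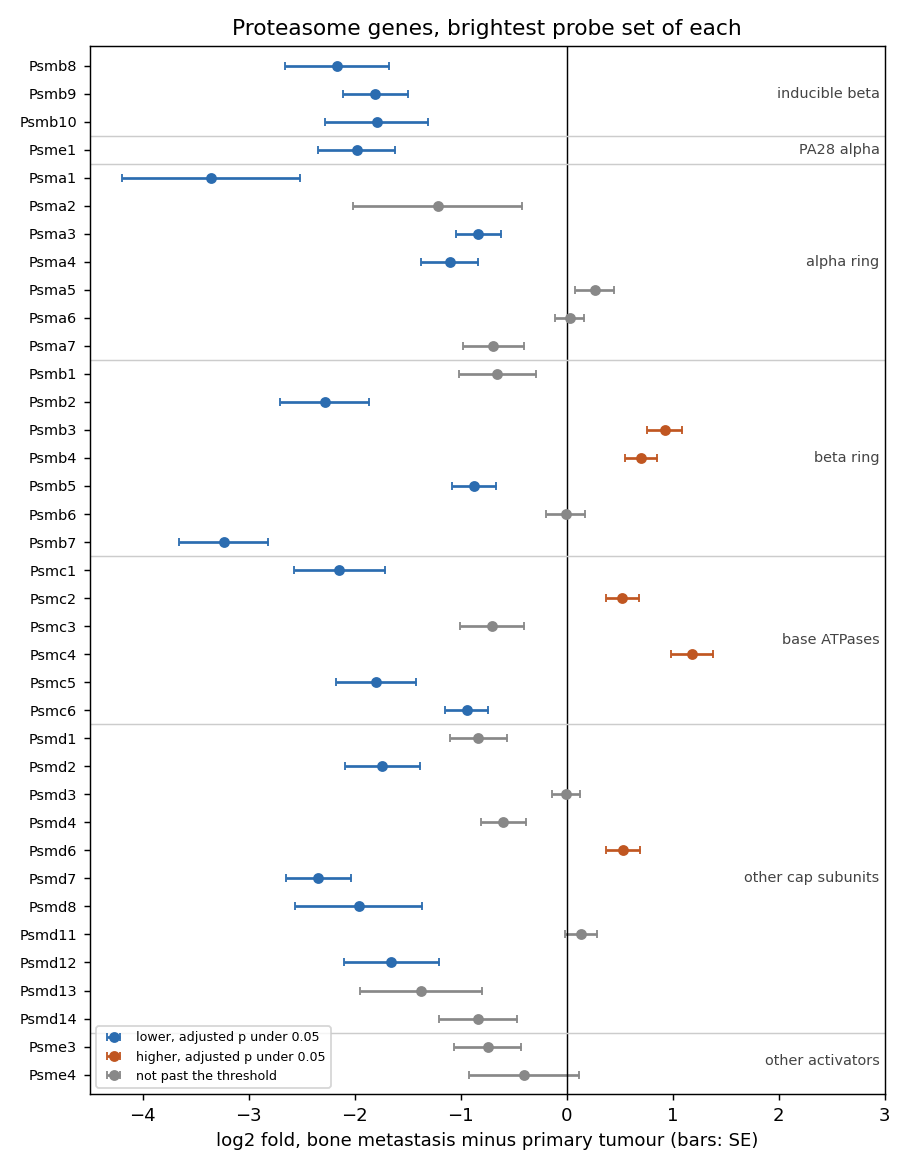
Log2 fold, metastasis minus primary, of the 37 proteasome genes on their brightest probe sets, grouped by role from top to bottom, with bars for the SE and colour for the call. All 4 immunoproteasome genes lie between -2.17 and -1.79, inside the constitutive range of -3.36 to 1.18.

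The size of these differences varied between the metastasis arrays. Set against the primary group mean of each gene, the median of the 4 immunoproteasome genes was -0.95, -1.69, -3.02 and -1.97 on metastasis arrays 1 to 4, and from -0.44 to 0.28 on primary arrays. The median of the 33 constitutive genes was -0.01, -0.55, -1.11 and -1.29 on metastasis arrays 1 to 4, and from -0.06 to 0.06 on primary arrays. Over all genes the same median lay between -0.01 and 0.15 on metastasis arrays. The constitutive genes thus stood at the primary level on metastasis array 1 by their median, while the immunoproteasome genes lay below it on every metastasis array. In 24 of the 37 genes (64.9%) both metastasis arrays 3 and 4 lay below arrays 1 and 2, against 24.7% of all genes. Arrays 3 and 4 also had the larger actin gaps, 5.72 and 6.18, against 4.85 and 4.55 on arrays 1 and 2.

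In mice 1 and 2 alone the median fold was -1.30 for immunoproteasome and -0.32 for constitutive genes, and in mice 3 and 4 alone -2.45 and -1.29. With 2 mice the limma test called 0 of all 18193 genes in mice 1 and 2 (14 proteasome genes lower and 4 higher at an unadjusted p under 0.05, and 3530 of all genes) and 4730 in mice 3 and 4, where 23 proteasome genes were lower and 3 higher. The count of proteasome genes called lower was 4 without mouse 3 and 6 without mouse 4, against 17 with all mice. Of all genes 3.86% and 5.58% were called lower without these mice, against 12.1% with all mice. The proteasome count was 11, 10 and 10 without primary array 1, 3 or 4, and 24 without metastasis array 1. In these 4 fits 8.76%, 7.16%, 6.83% and 14.9% of all genes were called lower.

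**Figure D4:**
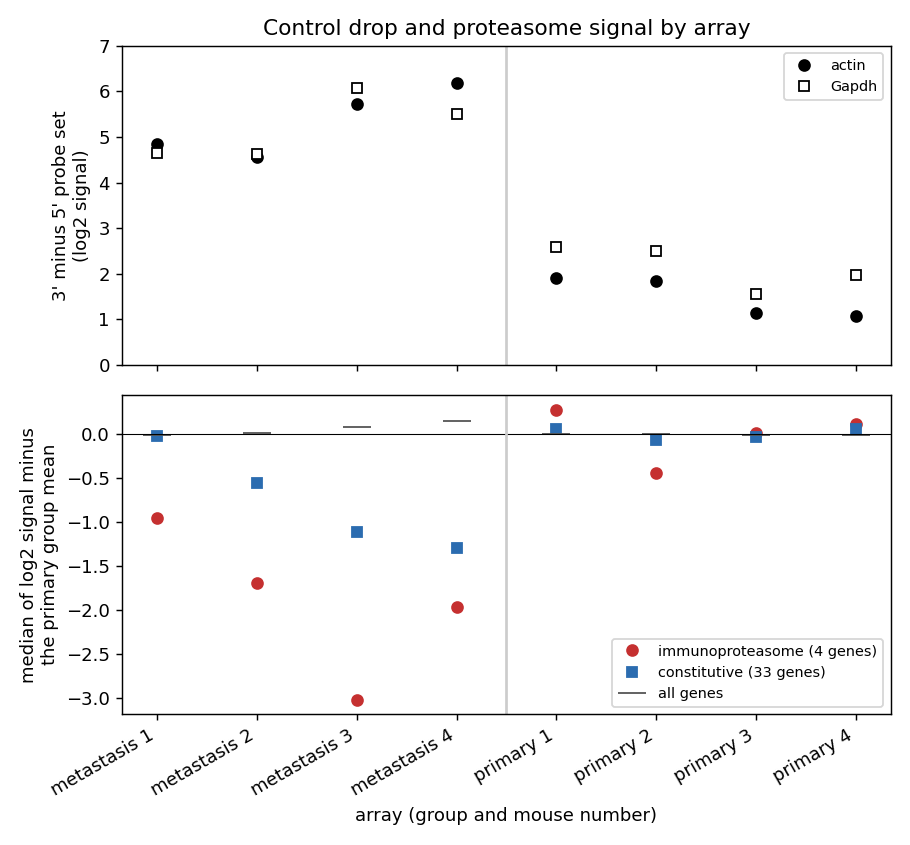
Top, 3' minus 5' log2 signal of the actin and Gapdh controls, by array, metastasis left of primary. Bottom, median over 4 immunoproteasome genes, 33 constitutive genes and all genes of the log2 signal minus the primary group mean. The larger gaps (4.55 to 6.18 for actin) are all on metastasis arrays, where the immunoproteasome median runs from -3.02 to -0.95.

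Probe sets of the same proteasome gene often disagreed. Over all 81 probe sets 25 were called lower and 8 higher, against 11.9% and 8.72% of the 34945 probe sets with a symbol of their own (limma, adjusted over all of these). At least 1 probe set was called lower in 24 genes and higher in 8, and 4 genes, Psma3, Psmb3, Psmb4 and Psmc2, had both. These counts by gene have no share over all genes beside them, and 21 of the 37 genes had several chances of a call. For 19 genes the 2 brightest probe sets both averaged above the array median of 5.20. The brightest had the higher fold in 13 of the 19, against 53.4% of 4963 such genes in all, and the median fold was -0.60 for the brightest and -1.16 for the second, against -0.14 and -0.14 over all such genes. Ordered by the primary arrays alone, a choice made after seeing the data, the brightest had the higher fold in 11 of the 19 (all genes 46.4%). The median fold was then -0.69 for the brightest and -0.77 for the second, against -0.27 and -0.11 over all such genes. Within a gene the median difference was 0.65 in this order, against 0.90 in the first. Beyond this reordering, the part of the ordering in the difference was not tested.

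Each of the 5 called rises rested on such a gene. Psmb3, 0.92 on its brightest probe set, had a fold of -1.87 (SE 0.39, limma adjusted p = 0.0123) on its second. That second probe set had log2 signals of 8.67, 8.33, 7.04 and 6.95 on metastasis arrays, against 9.65, 9.42, 9.81 and 9.61 on primary arrays, all metastasis arrays lower. Psmb4, 0.70 on its brightest, had -1.33 (SE 0.28, limma adjusted p = 0.0130) on a probe set with 11.30, 10.88, 10.27 and 9.98 on metastasis arrays, against 11.81, 11.82, 11.97 and 12.15 on primary arrays. On the primary arrays this second probe set was the brighter one, so the sign for Psmb4 turns with the order of its probe sets.

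Psmc2, 0.52 on its brightest probe set, had -1.72 (SE 0.35, limma adjusted p = 0.0110) on the second. Psmc4 and Psmd6 had -0.78 (SE 0.34, limma adjusted p = 0.148) and -1.16 (SE 0.42, limma adjusted p = 0.0850) on theirs, not past the threshold. The reverse also occurred: Psmb1, -0.65 on its brightest, had 1.15 (SE 0.23, limma adjusted p = 0.0102) on a dimmer one, and Psma3, -0.83, had 0.59 (SE 0.14, limma adjusted p = 0.0204). Psme3, not called on its brightest, had -1.64 (SE 0.25, limma adjusted p = 0.00392) on the second, as Psmd4 had -1.73 (SE 0.34, limma adjusted p = 0.00968) on its second and Psmd11 -2.23 (SE 0.38, limma adjusted p = 0.00596) on a dimmer one.

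The array's suffixes tell how specific a probe set is: plain "at" sets are meant to match 1 transcript, "a" sets hit several transcripts of a gene, and "x" sets hold probes that also match other sequences. None of the 5 rises rested on a plain set: 3 were on "a" sets (Psmb3, Psmc4 and Psmd6) and 2 on "x" sets (Psmb4 and Psmc2), whereas of 17 falls 12 were on plain and 5 on "a" sets. Of the proteasome probe sets above the array median, 17 of 36 plain sets were called lower and 2 higher (median fold -1.28). Of 18 "a" sets 7 were lower and 3 higher (median fold -0.80), and of 7 "x" sets 0 lower and 2 higher (median fold 0.18). Over all named probe sets above the array median, 19.3% of plain, 25.1% of "a" and 6.08% of "x" sets were lower. In the same order 10.3%, 11.5% and 27.1% were higher, so only the "x" sets leaned to rises. Which sequences gave the signal of the Psmb4 and Psmc2 "x" sets was not tested.

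**Figure D5:**
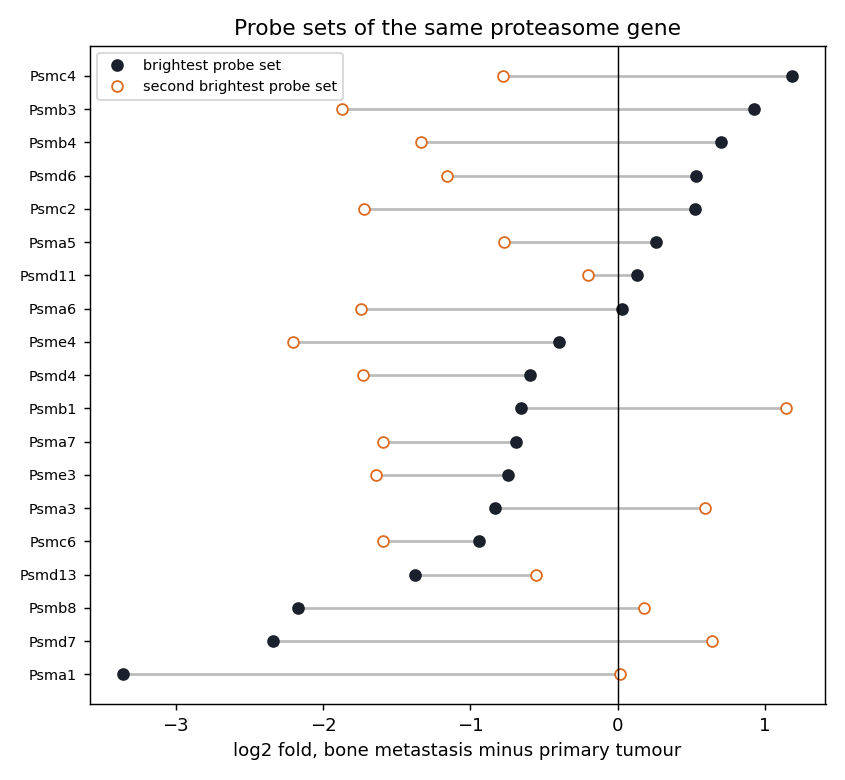
Log2 fold, metastasis minus primary, of the brightest and the second brightest probe set of the 19 proteasome genes with both above the array median, joined by a line per gene. All 5 genes at the top, called higher on their brightest probe sets, have a fold below 0 on the second.

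Of 41 other genes of the pathway listed, 30 were measured. Of these 9 fell (30%), 1 rose and 20 did not pass the test, with a median fold of -0.52. Of all genes 12.1% were called lower and 9.72% higher, and of the brighter ones 23.5% were called lower, near the share in this list. The list also holds dim genes such as Psma8 and Psmb11, so neither share is matched to it in brightness. The largest falls were those of Ubqln1 (-2.23, SE 0.34) and Rad23b (-1.81, SE 0.37), which shuttle ubiquitinated proteins to the proteasome, of Nfe2l2 (-2.19, SE 0.50), a transcription factor of antioxidant genes, and of Psmd10 (-1.69, SE 0.20), a chaperone in assembly of the cap. Psmg3, an assembly chaperone of the core, rose by 0.87 (SE 0.24). Pomp, the maturation factor of the core, had 9.75, 9.04, 8.45 and 8.20 on metastasis arrays, against 9.74, 9.68, 9.61 and 9.83 on primary arrays. Its fold was -0.86 (SE 0.31, limma adjusted p = 0.0841), with metastasis array 1 at the primary level. Nfe2l1, the transcription factor that raises proteasome genes when activity is short, had a fold of 0.04 (SE 0.24, limma adjusted p = 0.911). Irf1, which drives immunoproteasome genes, fell by 1.18 (SE 0.18, limma adjusted p = 0.00318) and is named after its value was seen. It and Nfe2l2 were the 2 of 5 measured regulators of subunit genes that fell.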

How the data were processed

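RMA is the tool named in the submitters' processing notes for the deposited log2 signals, with 1 value for each probe set on each array; for its version and further steps, nothing was given in the sources used here. RNA had been column-purified and labelled in 2 amplification cycles, according to the labels' protocols. Of 45101 probe sets, 34945 carried 1 gene symbol in the platform annotation, 932 several and 9160 none, and 64 were controls. Probe sets without a symbol of their own were left out. Symbols were kept as annotated; all 37 proteasome genes were found in the RefSeq gene table.

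Bone metastasis and primary tumour were compared by limma 3.58.1 (R 4.3.3; lmFit and eBayes, two-sided, no block, no filter) over 18193 genes, using the brightest probe set of each, with Benjamini-Hochberg adjustment and a threshold of 0.05. A second fit took all 34945 probe sets. The 3 subunit pairs were compared by exact permutation of the 8 arrays. The fit was tested on simulated data. Figures were drawn with matplotlib 3.10.9. The number of arrays limits precision: median SEs of the folds were 0.23 for all genes and 0.31 for the proteasome genes.

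Replicate numbers pair the arrays because each mouse gave 1 metastasis and 1 primary tumour, as the design text says. Their deviations from the group means correlated at 0.17, 0.01, 0.02 and -0.11 in mice 1 to 4. The members, gene lists and tests were chosen with earlier results of these data known. Genes given in every sample were the immunoproteasome genes, their counterparts, Psme3, Psme4 and up to 5 called rises and 5 called falls of largest fold. Other pathway genes were named if among the 4 largest called changes in a direction, with Tap1, Nfe2l1 and Pomp fixed; Irf1 was added after its value was seen. Alternatives were other normalizations, probe set rules, a filter on dim genes, the mouse as a block, and subsets of arrays and mice.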

Additional observations from a re-analysis of the deposited data

Results flagged for a closer look

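In 4 of 80 groups of 4 arrays (5%), over the 37 genes and 3 subunit pairs, 1 array lay far from the other 3, about the 1 in 20 that chance gives, and all 4 were primary arrays. Psmb8 was 10.28 on primary array 2, against 10.71 to 10.73 on the others, and Psmb5 was 11.20 (11.195 before rounding) on the same array, against 11.50 to 11.57. Psma5 was 11.31 on primary array 3, against 11.73 to 11.81, and Psmc4 was 9.40 on that array, against 9.97 to 10.06.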

How the results depend on the processing

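The medians of both gene groups stayed below 0 in all 20 alternatives; the number of calls, above all of rises, did not stay the same. Against 5 rises, 2 were called with the most variable probe set, 0 with the mean of probe sets (1 at an unadjusted p under 0.05 by limma), 3 with the filter on dim genes, 2 with the mouse as a replicate block, 0 in mice 1 and 2 (4 unadjusted) and 3 in mice 3 and 4, and leaving out 1 array or mouse gave 1 to 4. Against 17 falls and 22 calls in all, leaving out 1 array or mouse gave 4 to 24 and 5 to 28, and mice 1 and 2 alone gave 0 and 0 by limma. Over all genes 3.86% to 15% were called lower when 1 array or mouse was left out, against 12.1% with all arrays. Of 33 called probe sets, 9 to 44 were called in the same leave-outs and 0 in mice 1 and 2. With the replicate block 14 genes were lower: Psma3, Psmd8, Psmd12, Psmb4, Psmd6 and Psmc2 lost their calls, and no other of the 37 genes changed its call. The block leaves the exact test of the pairs at p = 0.125, the smallest it allows. The constitutive median was -1.60 with the most variable probe set. Psmb8 minus Psmb5 was -0.12 with the mean of probe sets, -0.44 in mice 1 and 2 and -2.14 in mice 3 and 4, and ran from -1.59 to -0.97 in the leave-outs, where Psmb9 minus Psmb6 ran from -1.99 to -1.60 and Psmb10 minus Psmb7 from 0.95 to 1.77.

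Directions turned where another probe set was taken. With the most variable probe set Psmb3, Psmb4, Psmd6 and Psmc2 stood at -1.87, -1.33, -1.16 and -1.72, and with the mean at -0.48, -0.32, -0.31 and -0.28. Psmb4 was -1.12 after quantile normalization, -0.72 in mice 1 and 2, and from -1.42 to 0.80 in the leave-outs, in each case of a fall because its other probe set became the brightest. With arrays scaled to their 75th percentile, the median over all genes was 0.30 (0.09 without), and no call among the 37 genes changed; Psmb6 and Psmd3, neither called, turned to 0.19 each. Taking the order of probe sets from primary arrays, or both above 8, alternatives chosen after seeing the data, the brightest had the higher fold in 11 of 19 genes (all genes 46.4%), 11 of 11 (all genes 65.3%) and, with both, 9 of 11 (all genes 54.5%). Arrays give no depth, and no listed gene's group mean lay under the array median.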
